A study of Homo sapiens with 2 samples.

Results

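The regions described here are the megabase stretches of the human autosomes in which an ATAC-seq library of the embryonic kidney line 293T had many more peaks than a library of the T cell leukemia line J76. The 22 autosomes were divided into windows of 1 Mb, each peak was placed by its summit (the position of its highest signal), and a window was kept if it held 20 or more summits in all and at least 4 times as many from 293T as from J76. Of 2474 windows with 20 or more summits, 243 were kept (9.82%). They held 10621 of the 139389 autosomal peaks (145228 peaks in all), of which 9222 came from 293T and 1399 from J76. The same counts chose the windows, so the counts are given as a description and no test was made of them. The mirror rule, J76 at least 4 times 293T, kept 12 windows (0.485%). The autosomal 293T list was 1.43 times as long as that of J76, so the rule and its mirror were not on equal terms.

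Both lines were profiled with a Tn5 transposase that the submitters purified themselves, an enzyme that cuts accessible DNA and attaches sequencing adapters in the same step. J76 is labelled a human acute T-lymphoblastic leukemia line, and the line labelled T293, 293T in the protocol, comes from human embryonic kidney. Each reaction held 50000 cells, no treatment or genetic change is named in the labels, and each line is represented by 1 library. Differences between the lines were therefore not checked against replicates, and no p-value was computed. Depth is unknown because the peak lists hold no read counts, so a stretch without peaks is not shown to be closed.

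Accessible chromatin marks promoters, where transcription starts, and distal elements such as enhancers, which can act on genes far away. Gene-dense parts of the genome carry many promoters that are open in most cell types, whereas gene-poor parts hold mostly distal elements, whose use differs more between cell types. Large genes of neuronal adhesion and axon guidance are often found in such gene-poor parts. Embryonic kidney lines of this kind are known for expressing some neuronal genes beside kidney ones.

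The identity of the libraries was checked at gene ends, where a gene was counted if a peak touched the stretch from 1 kb before to 1 kb after its first or last base. All 10 T cell markers (such as CD3E, CD2 and LCK) had a gene-end peak in J76 only, against 3.92% of 19126 autosomal protein-coding genes. Of 13 markers chosen for 293T, 10 (such as GDNF, CAV1 and KRT8) had one in 293T only, against 8.89% of all genes, and the other 3, NEFM and NEFL among them, had one in both lines. The autosomal lists held 57429 peaks in J76 and 81960 in 293T, a ratio of 1.43, and the median ratio of 293T to J76 summits over the 2474 windows was 1.41. The kept windows held 11.3% of the autosomal 293T peaks and 2.44% of those of J76.

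Most summits in these windows lay away from promoters, and the letters shown are those of the few promoters with a strong peak in 293T alone. RefSeq promoter windows on GRCh38.p14 run from 250 bases before to 50 after a gene's start. The 6 printed are among the 10 genes of the kept windows with the highest fold enrichment at a gene-end peak found in 293T only, and in each the peak overlapped the promoter. They are written 5′ to 3′ in the direction of the gene, with capitals marking matches, on either strand, to 6 motifs: TGACTCA (AP-1), CATTCC (TEAD), CACGTG (E-box), GGGCGG (GC box), CCAAT and TATAAA.
GMNC, chr3:190862645-190862944, minus strand: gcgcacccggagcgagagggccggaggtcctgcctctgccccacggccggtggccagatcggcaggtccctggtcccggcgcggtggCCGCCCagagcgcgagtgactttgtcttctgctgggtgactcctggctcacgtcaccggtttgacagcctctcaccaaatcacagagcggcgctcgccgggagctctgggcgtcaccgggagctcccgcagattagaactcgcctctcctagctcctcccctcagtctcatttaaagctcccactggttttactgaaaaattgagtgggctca
SPAG17, chr1:118185179-118185478, minus strand: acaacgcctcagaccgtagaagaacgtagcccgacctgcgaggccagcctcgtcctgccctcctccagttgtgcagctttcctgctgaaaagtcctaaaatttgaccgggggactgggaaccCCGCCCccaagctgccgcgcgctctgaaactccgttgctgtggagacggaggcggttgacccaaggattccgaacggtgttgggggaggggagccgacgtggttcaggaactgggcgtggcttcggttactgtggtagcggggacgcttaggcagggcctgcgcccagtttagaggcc
CAP2, chr6:17393345-17393644, plus strand: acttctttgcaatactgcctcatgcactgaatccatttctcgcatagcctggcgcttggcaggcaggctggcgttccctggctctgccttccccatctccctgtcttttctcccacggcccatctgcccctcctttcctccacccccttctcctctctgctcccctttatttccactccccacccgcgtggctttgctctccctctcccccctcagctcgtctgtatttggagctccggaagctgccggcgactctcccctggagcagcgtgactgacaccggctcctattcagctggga
CDH10, chr5:24644929-24645228, minus strand: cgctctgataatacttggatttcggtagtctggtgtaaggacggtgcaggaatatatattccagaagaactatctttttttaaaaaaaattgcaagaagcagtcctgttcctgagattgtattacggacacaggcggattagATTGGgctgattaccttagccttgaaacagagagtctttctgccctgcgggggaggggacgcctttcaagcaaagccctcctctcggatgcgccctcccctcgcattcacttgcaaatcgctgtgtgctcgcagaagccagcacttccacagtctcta
UNC80, chr2:209771582-209771881, plus strand: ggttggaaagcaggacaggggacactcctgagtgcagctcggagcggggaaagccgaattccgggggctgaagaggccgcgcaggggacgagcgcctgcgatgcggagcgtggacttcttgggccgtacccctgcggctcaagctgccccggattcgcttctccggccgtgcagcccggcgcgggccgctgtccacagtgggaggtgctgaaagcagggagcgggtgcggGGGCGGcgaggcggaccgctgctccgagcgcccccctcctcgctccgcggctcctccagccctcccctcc
ADGB, chr6:146598722-146599021, plus strand: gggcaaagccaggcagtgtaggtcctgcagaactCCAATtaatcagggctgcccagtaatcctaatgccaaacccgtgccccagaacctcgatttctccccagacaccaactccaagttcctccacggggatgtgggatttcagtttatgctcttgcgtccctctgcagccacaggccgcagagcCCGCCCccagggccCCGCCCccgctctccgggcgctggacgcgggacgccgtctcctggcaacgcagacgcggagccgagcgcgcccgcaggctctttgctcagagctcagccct
GMNC encodes a regulator of multiciliated cell formation and SPAG17 a part of the ciliary axoneme. CAP2 encodes an actin-regulating protein, CDH10 a classical cadherin of neurons, UNC80 a part of the sodium leak channel complex, and ADGB androglobin. In all 6 the summit of the 293T peak fell inside the printed letters, for example at base 156 in GMNC, 235 in CDH10 and 177 in UNC80. The GC box was found in GMNC, SPAG17, UNC80 and ADGB and the CCAAT box in CDH10 and ADGB, while CAP2 held none of the 6 motifs. A match is a description of the letters and not evidence of binding.

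By count, the kept windows differed from other windows more in J76 than in 293T summits, but the rule itself used both counts. A kept window held between 16 and 86 summits of 293T (median 36, interquartile range 27 to 46), whereas the 2219 other windows with 20 or more summits, those of the mirror rule left out, held a median of 30 (22 to 40). For J76 the kept windows held between 0 and 18 summits (median 5, interquartile range 4 to 8) against a median of 21 (15 to 30) in the other windows. The mean over kept windows was 1.19 times that of the other windows for 293T and 0.237 times for J76. All 243 kept windows lay below the other windows' median for J76, while 160 lay above it and 80 below it for 293T. The rule caps the J76 count at the 293T count divided by 4, so the J76 side is largely fixed by it. The name given to these windows thus covers both a moderately higher 293T count and a low J76 count. List length bears on this: with the strongest 57429 peaks of each list, 73 windows were kept, all among the 243 and 14 of them on chromosome 13, and with J76 counts scaled to the longer list 130 were.

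**Figure D1:**
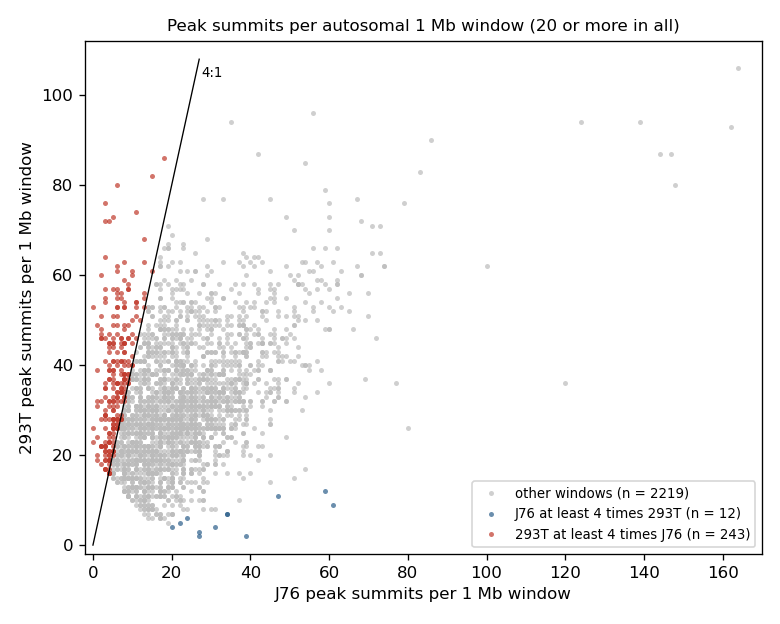
Each point is 1 autosomal 1 Mb window with 20 or more summits, with J76 summits on the horizontal and 293T summits on the vertical axis and the line at 4 to 1. The 243 kept windows (red) hold 0 to 18 J76 summits and 16 to 86 293T summits, and the 12 mirror windows (blue) lie at the bottom.

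At the threshold the windows differed little on either side. Exactly 4 times as many 293T as J76 summits were counted in 15 kept windows, for example 40 against 10 on chromosome 2 from 166 to 167 Mb and on chromosome 6 from 145 to 146 Mb. Just outside lay a window on chromosome 6 from 126 to 127 Mb with 47 against 12 (ratio 3.92) and one on chromosome 5 from 124 to 125 Mb with 43 against 11 (3.91). A further 67 windows had ratios from 3.5 to under 4. At the far end, 44 kept windows had a ratio of 10 or more, and 3 others had 0 J76 summits. In 35 windows with fewer than 20 summits the ratio was met but the count was too low.

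The windows clustered along chromosomes. Of the 243, 150 (61.7%) had a kept window directly beside them, against 219 of the 2231 windows that had 20 or more summits and were not kept (9.82%). They formed 143 runs, of which 93 were single windows, 31 were pairs and 19 spanned 3 windows or more. The longest runs covered 13 and 10 Mb of chromosome 13, 6 Mb of chromosome 1, and 5 Mb at 2 places on chromosome 1 and at 1 on chromosome 2. With lists of equal length, with scaled J76 counts, at a −log10 q of at least 5 and at a ratio of at least 6, the longest run was 6 windows.

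Chromosome 13 held 35 of its 87 windows with 20 or more summits in the kept set (40.2%), the highest share of any autosome, and 53.5% of its 293T summits in such windows lay there. Chromosome 1 followed with 39 of 226 (17.3%), chromosome 2 with 31 of 216 (14.4%) and chromosome 6 with 20 of 163 (12.3%). At the low end stood chromosome 17 with 1 of 73 (1.37%), chromosome 16 with 1 of 66 (1.52%) and chromosomes 19 and 22 with 0 of 55 and 0 of 38, which allows a share of up to 5.45% and 7.89% by counting error alone. Over these windows the ratio of 293T to J76 summits was 2.64 on chromosome 13, 1.76 on chromosome 1, 0.913 on chromosome 19 and 0.898 on chromosome 22. Chromosome 16 had a ratio of 1.10 and chromosome 17 one of 0.974. The number of copies of each chromosome in each line is not known from these data, and its part in these values was not tested.

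**Figure D2:**
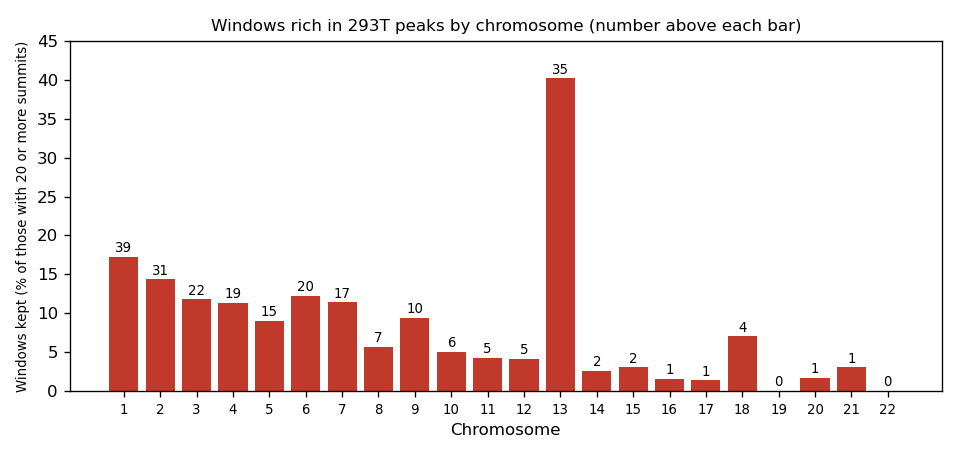
Share of each autosome's windows with 20 or more summits that met the 4 to 1 rule (vertical axis, %), with the number of such windows above each bar. Chromosome 13 stands at 40.2% with 35 windows and chromosome 1 at 17.3% with 39, while chromosomes 19 and 22 have 0.

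The 13 Mb run on chromosome 13, from 61 to 74 Mb, held 810 summits of 293T and 76 of J76. Its windows held 44 to 86 summits of 293T and 2 to 18 of J76. The window before the run had 34 and 16 and the window after it 44 and 17. Most windows of the run had more 293T summits than either of them, and all but 1 had fewer J76 summits. A run ends at a window that does not meet the rule, so contrasts with the windows beside a run are description only. The run held 12 protein-coding genes by midpoint, 0.923 per Mb, and 21.0% of its 293T summits were in gene bodies. Among them PCDH9, a protocadherin of neuronal adhesion, had 81 summits of 293T and 11 of J76. The kept window with the most 293T summits (86 against 18, 67 to 68 Mb) covers one end of PCDH9. DACH1, a transcriptional regulator of development, had 43 and 2, KLF12, a zinc finger repressor, had 42 and 16, and KLHL1, an actin-binding protein of neurons, had 17 and 2. PCDH20, another protocadherin, had a 293T-only peak of fold 9.46 at its end and no J76 summit.

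The 10 Mb run on the same chromosome, from 81 to 91 Mb, held 483 summits of 293T and 45 of J76 and was nearly without genes. Its windows held 36 to 57 summits of 293T and 0 to 11 of J76, and the windows before and after it had 43 and 53 of 293T and 18 and 14 of J76. Here the 293T counts inside and beside the run overlapped, and the J76 counts did not, a contrast that the rule ending the run favours. Gene bodies made up 0.772% of its bases and held 4 of its 483 293T summits. Its named genes were SLITRK1, SLITRK5 and SLITRK6, which encode membrane proteins of neurite growth and synapse formation. SLITRK6 had a gene-end peak in 293T only (fold 8.43), as did SLITRK1 (6.07). SLITRK5 had one in both lines, of fold 10.5 within the J76 list and 4.70 within that of 293T.

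On chromosome 1 the 6 Mb run from 237 to 243 Mb held 296 summits of 293T and 45 of J76. The windows beside it had 66 and 52 of 293T, against 33 to 61 inside, and 19 and 20 of J76, against 5 to 10 inside. It was richer in genes than the chromosome 13 runs, with 16, and 54.1% of its 293T summits were in gene bodies. RYR2, the ryanodine receptor that releases calcium in heart muscle, had 46 summits of 293T and 6 of J76, among them a 293T peak of fold 13.6. The muscarinic receptor gene CHRM3 had 26 and 4, the formin gene FMN2 21 and 3, and WDR64 20 and 1.

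**Figure D3:**
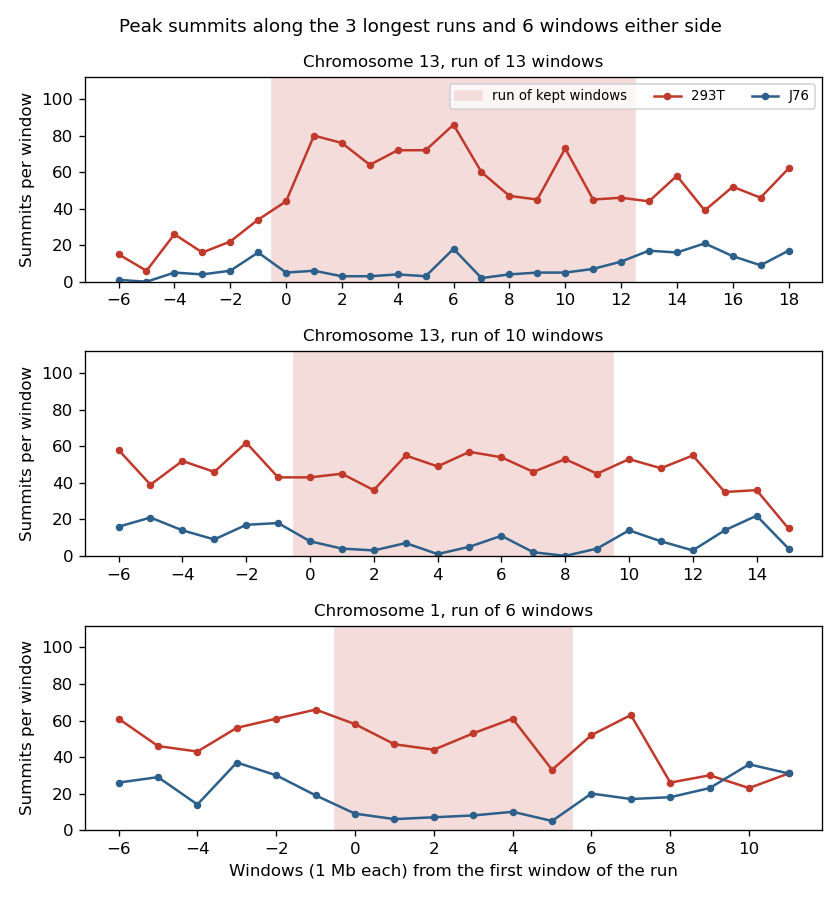
Summits per 1 Mb window (vertical axis) along the 3 longest runs and 6 windows on each side, counted from the first window of the run, with 293T in red, J76 in blue and the run shaded. J76 lies below the windows directly beside each run in every window but 1 (18 summits, upper panel), while 293T reaches 86 in the upper panel and stays within the range of its flanks in the others. The windows directly beside a run did not meet the rule, so the contrast is description only.

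The 3 runs of 5 Mb showed the same range of gene content. From 187 to 192 Mb on chromosome 1 there were 253 summits of 293T and 33 of J76, and BRINP3 was the 1 protein-coding gene, with 21 and 1. From 215 to 220 Mb on the same chromosome there were 219 and 20. ESRRG, an orphan nuclear receptor, had 20 and 1 there, LYPLAL1 16 and 3, and SPATA17 15 and 1. From 184 to 189 Mb on chromosome 2 there were 254 and 53, with 24 and 3 at the engulfment adaptor gene GULP1, 12 and 2 at TFPI, an inhibitor of blood clotting, 11 and 4 at ZNF804A, and 10 and 2 at CALCRL, a receptor for adrenomedullin. CALCRL had a gene-end peak of fold 10.1 in 293T and 5.49 in J76.

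Of the 5 kept windows with the most 293T summits, 3 lay in the 13 Mb run of chromosome 13 and 2 on chromosome 7. The chromosome 7 windows belonged to a run from 58 to 61 Mb with 213 summits of 293T and 29 of J76 and 0 protein-coding genes, lying between ZNF716 and a provisional locus in the region of the centromere, where sequence is repetitive and the placing of reads is uncertain. The kept windows with 0 J76 summits were on chromosome 13 from 89 to 90 Mb, with 53 summits of 293T, on chromosome 9 from 22 to 23 Mb, with 26, and on chromosome 17 from 71 to 72 Mb, with 23. The chromosome 13 window held 0 protein-coding genes and lay between SLITRK5 and GPC5. The chromosome 17 window also held 0, between the potassium channel gene KCNJ2 and SOX9, a developmental regulator with a known gene desert before it.

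Stretches between neighbouring J76 summits were listed by the number of 293T summits inside them. Chromosome 13 gave the highest number, 87 summits of 293T over 1232 kb without a protein-coding gene, followed by 70 over 1314 kb and, overlapping DACH1, 57 over 810 kb. The chromosome 9 stretch was the longest of the 20 with the most 293T summits, 2373 kb with 54 of them and 20 protein-coding genes. It spans the interferon alpha genes, MTAP, a methionine salvage enzyme, the cell cycle inhibitor genes CDKN2A and CDKN2B, and the regulator gene DMRTA1. Gene-end peaks were listed there in 293T only for MTAP (fold 9.02), CDKN2A (4.01), CDKN2B (9.56) and DMRTA1 (8.70). A stretch of 1597 kb on chromosome 1 with 53 summits of 293T held the whole of ADGRL2, a latrophilin adhesion receptor, and one of 1262 kb on chromosome 2 with 43 held NCKAP5. The lists do not tell a stretch without open sites from one without reads.

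The kept windows were poor in genes. The rule did not use gene number, but the J76 count that it caps rose with gene number. Gene number is therefore not independent of the rule. They held 440 protein-coding genes by midpoint, 1.81 per Mb (exact Poisson 95% interval 1.65 to 1.99, counting error only), against 8.25 per Mb in the other windows with 20 or more summits. The median was 1 gene (interquartile range 0 to 2) against 6 (3 to 10). No protein-coding gene midpoint lay in 73 of the 243 (30.04%), against 150 of 2219 (6.76%), and 10 or more lay in 2 against 619. Long noncoding RNA genes differed less, with 4.30 per Mb against 6.89. Windows of 1 genome and 1 pair of libraries are not replicates, so no test was made.

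Read the other way, the share of windows kept went down with gene number. Of windows with 0 protein-coding genes 31.5% were kept (73 of 232), of those with 1 or 2 genes 23.2% (111 of 478), of those with 3 to 5 genes 6.93% (42 of 606) and of those with 6 to 9 genes 2.79% (15 of 537). Among windows with 10 or more genes 1 of 408 and 1 of 213 were kept. The counts of the lines followed gene number to different degrees. The median J76 count per window went from 10 with 0 genes to 43 with 20 or more, and that of 293T from 23.5 to 44. In the most gene-dense windows the lines had nearly as many summits as each other (ratio of sums 1.02), and with 1 or 2 genes 293T had 2.07 times as many.

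**Figure D4:**
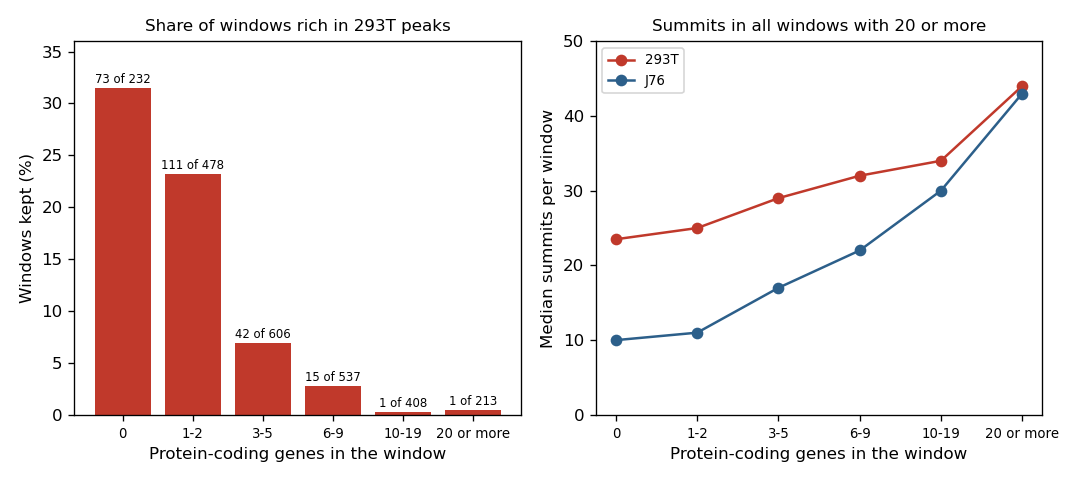
Left, share of windows with 20 or more summits that met the 4 to 1 rule (vertical axis, %) by number of protein-coding genes, with counts above the bars; right, median summits per window of each line over all such windows. The share is 31.5% at 0 genes and below 1% from 10 genes upward, and the medians of 23.5 (293T) and 10 (J76) at 0 genes meet at 44 and 43.

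Gene bodies filled less of the kept windows than of the others and held slightly more than their share of the 293T peaks. Protein-coding gene bodies made up 35.96% of the bases of kept windows and 47.2% of the other windows. Of the 9222 293T summits in kept windows, 3678 lay in a gene body (39.9%, 95% Wilson interval 38.9 to 40.9), against 47.0% (46.6 to 47.3) of 70545 in the other windows. The share of summits was thus above the share of bases in kept windows and close to it in the others. With all RefSeq genes, long noncoding ones included, 55.7% of the 293T summits in kept windows lay in a gene body and 52.2% of the bases did. These intervals cover counting error only, and neighbouring peaks are not independent. With lists of equal length the order of the summit shares turned, 46.7% in kept and 46.2% in other windows. For the 1399 J76 summits in kept windows the share in protein-coding gene bodies was 36.7% (34.3 to 39.3).

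Few of these peaks were at gene ends. At most 1 kb from a protein-coding gene's first or last base lay 305 of the 9222 293T summits (3.31%, 2.96 to 3.69), against 18.1% (17.9 to 18.4) in the other windows. These shares take no account of gene number: such summits numbered 305 for 440 genes in kept windows and 12795 for 18300 in the others. Of the J76 summits in kept windows 12.0% (10.4 to 13.8) were at a gene end, against 21.3% (21.0 to 21.7) in the other windows. The few J76 peaks of kept windows were thus at gene ends more often than the 293T peaks there. The windows were chosen on the counts of both lines, so nothing is read from that difference. A peak of the other line overlapped 8.97% of the 293T peaks and 58.7% of the J76 peaks there, shares that the counts used by the rule largely fix. Among the 827 293T peaks of kept windows that overlapped a J76 peak, 18.5% were at a gene end (16.0 to 21.3), and among the 8395 that did not, 1.81% (1.55 to 2.12). In the other windows the same shares were 35.9% (35.3 to 36.4) and 6.24% (6.01 to 6.48).

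The 293T peaks of kept windows had lower fold enrichment than those of the other windows, with the smallest gap among peaks without a J76 overlap. The authors' fold enrichment at the summit, a linear ratio to background, had a median of 3.75 (interquartile range 3.17 to 4.77) in kept windows and 4.46 (3.46 to 6.52) in the other windows. Among 293T peaks without an overlapping J76 peak the medians were 3.65 and 3.77. Among peaks with such an overlap they were 5.71 and 6.47, and among peaks at gene ends 6.04 and 7.24. The median width was 318 bp against 376 bp over all, and 308 bp in both among peaks without an overlap. A −log10 q of at least 50 was reached by 3.21% of the 293T peaks in kept windows (2.87 to 3.59) and by 12.2% (11.9 to 12.4) elsewhere.

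Inside a window the 293T summits were spread out rather than gathered at a single place. When each kept window was divided into 10 bins of 100 kb, 293T summits fell in a median of 10 bins, and in 187 of the 243 windows they fell in 9 or 10. The fullest bin held a median of 21.3% of a window's 293T summits, and in the other windows 22.2%. Neighbouring 293T summits lay a median of 14.5 kb apart in kept windows and 16.1 kb in the others. J76 summits in kept windows fell in a median of 4 bins and lay 84.6 kb apart, against 8 bins and 19.7 kb in the other windows.

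The genes of these windows were long. Their median length was 78.0 kb (interquartile range 15.6 to 230 kb), against 23.97 kb (8.79 to 62.8 kb) for the 18300 genes in the other windows. Genes of 500 kb or more numbered 55 of 440 (12.5%), against 195 of 18300 (1.07%). Of all protein-coding genes whose midpoint lay in a window with 20 or more summits, 2.35% were in kept windows. By length, the share was 1.77% below 10 kb, 4.43% from 100 to 250 kb, 17.1% from 500 to 1000 kb and 44.4% (20 of 45) from 1000 kb upward. All 55 long genes had more summits from 293T than from J76, a direction the choice of windows favours. Over autosomal protein-coding genes of every length 34.5% had it, and 9082 of 19126 had equal counts. That share is therefore not of like length, and long genes of the other windows were not counted in this way. Per 100 kb of gene, these 55 held a median of 3.97 summits of 293T and 0.528 of J76.

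The 10 genes with the most 293T summits were all 500 kb or longer and held 642 summits of 293T and 100 of J76 in all. Cell adhesion and guidance genes made up several of them. CNTNAP2, a contactin-associated adhesion protein of axons and the longest at 2304 kb, had 96 summits of 293T and 15 of J76, and PCDH9 had 81 and 11. The axon guidance receptors ROBO1 and ROBO2, which bind SLIT proteins and of which ROBO2 also helps to place the ureteric bud of the kidney, had 56 and 6 and 54 and 6. These genes differed in density, with 8.73 293T summits per 100 kb in PCDH9, 4.78 in ROBO1, 4.17 in CNTNAP2 and 3.10 in ROBO2.

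Others encode proteins of many kinds. GPC5 and GPC6, heparan sulfate proteoglycans of the cell surface and neighbours on chromosome 13, had 72 and 18 and 62 and 5 summits of 293T and J76. The cAMP phosphodiesterase gene PDE4D had 71 and 15, AUTS2, a nuclear regulator of brain development, 51 and 8, and GMDS, an enzyme of GDP-fucose synthesis, 47 and 6. In 6 of these 10 genes a gene-end peak was listed in both lines. For CNTNAP2 the fold was 9.07 in 293T and 10.9 in J76 and for GMDS 10.56 and 10.01. In these 6 genes the lines differed in the number of peaks along the gene, while each line had a gene-end peak. Both ends of a gene were pooled, so the peaks need not lie at the same end. GMDS also had a 293T-only peak of fold 2.66 at its lower-coordinate end.

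**Figure D5:**
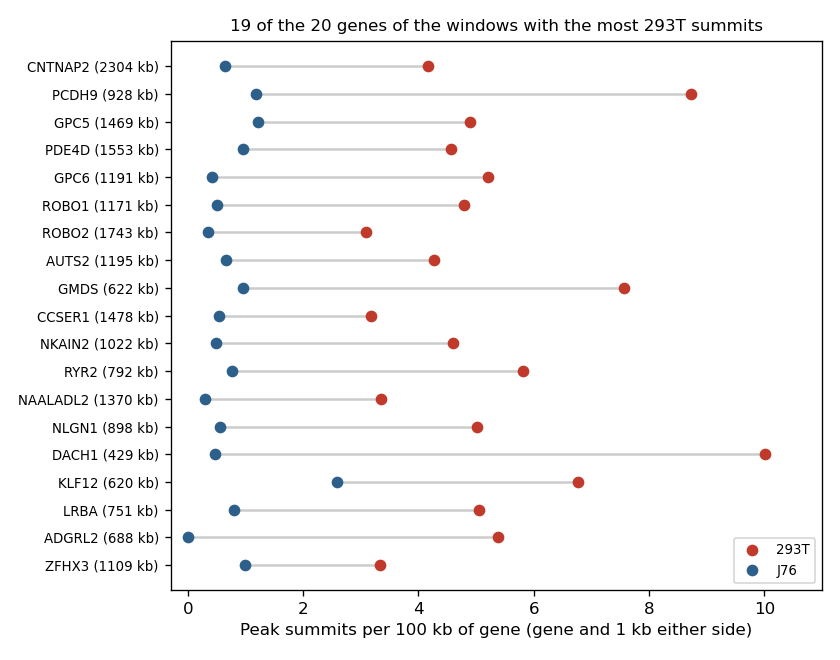
Peak summits per 100 kb of gene (horizontal axis) in 293T (red) and J76 (blue) for 19 of the 20 genes of the kept windows with the most 293T summits, most at the top, with gene length in kb. All 19 have more 293T summits, and densities of 293T reach 10.02 per 100 kb in DACH1 and 8.73 in PCDH9.

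At gene ends 120 of the 440 genes (27.3%) had a peak in 293T only, against 8.89% of all autosomal protein-coding genes. A further 181 (41.1%) had one in both lines, against 61.3% of all genes, 10 had one in J76 only and 129 in neither. Because the windows were chosen on the difference between the lines, nothing is read from the first share. After INSYN2B, of a family of inhibitory synapse proteins (fold 11.1), the strongest gene-end peaks found in 293T only were at GMNC (10.8), SPAG17 (10.8), CAP2 (10.03) and CDH10 (10). UNC80 (9.98), ROBO2 (9.80), ADGB (9.59), CDKN2B (9.56) and PCDH20 (9.46) followed. UNC80 also had a separate J76 gene-end peak of fold 4.79.

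Promoters in the kept windows held less GC than others. RefSeq gave 583 promoters for genes there and 21156 for all autosomal protein-coding genes, with more than 1 for some genes. Their median GC content was 57.3% (interquartile range 44.7 to 68.0) against 62.7% (53.0 to 70.3) for all, and they held a median of 16 CG dinucleotides against 21. The 210 with a peak in both lines (36.02%, against 54.8% of all promoters) had a median GC content of 66.8%, the 160 with a peak in 293T only (27.4%, against 9.37%) 60.3%, and the 204 with neither 43.0%. In the other windows these medians were 67.0%, 62.7% and 52.3%.

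Motif letters differed between these classes, and not all in the same order. The GC box was in 72.9% of the kept-window promoters with a peak in both lines, 45.6% of those with a peak in 293T only and 14.7% of those with neither, against 56.6% of all promoters. TATAAA ran the other way, with 4.29%, 9.38% and 19.6%, against 9.51% of all. The TEAD letters CATTCC were in 8.57%, 15% and 14.7%, against 12.2% of all. The remaining motifs were at 2.38%, 3.75% and 4.90% for the AP-1 letters TGACTCA (3.98% of all), 30.95%, 35% and 36.8% for CCAAT (34.4% of all), and 6.67%, 6.88% and 3.43% for CACGTG (8.25% of all). The AP-1 letters were in 6 and the TEAD letters in 24 of the 160 promoters with a 293T-only peak. In the other windows the same 3 classes had 76.4%, 55.9% and 24.9% for the GC box and 4.37%, 9.34% and 18.3% for TATAAA. There CATTCC was in 9.38%, 14.2% and 16.8%, and TGACTCA in 2.11%, 6.34% and 6.63%. CCAAT was in 35.5%, 29.9% and 33.7% there, and CACGTG in 10.5%, 6.28% and 5.24%.

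Gene lists written for this work were located among the windows. Of 30 T cell receptor and surface genes 29 were autosomal and in windows with 20 or more summits, and 0 were in kept windows. The same held for 0 of 13 erythroid, 0 of 15 B cell, 0 of 15 myeloid, 0 of 14 hepatocyte, 0 of 17 mature nephron, 0 of 24 ribosomal protein, 0 of 23 replication and 0 of 340 olfactory receptor genes. Most of these lists are short beside the 2.35% of all genes in kept windows, so a count of 0 says little of them. ZNF genes had 1 of 474 there, ZNF804A. Among leukocyte genes DOCK2 (9 summits of 293T and 3 of J76) was the 1 of 19. It drives leukocyte migration, and its gene-end peak was in J76 only, of fold 8.87. INSYN2B lies inside DOCK2, and the 293T peak of fold 11.1 at the end of INSYN2B is also the strongest 293T peak within DOCK2.

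The kidney regulator, YAP/TEAD pathway, epithelial, matrix and neuronal marker lists had 1 or 2 members each in kept windows. Their shares ran from 4.35% to 7.14%, against 2.35% of all protein-coding genes. With so few members these shares say little, and the mature nephron list had 0 of 17. The kidney regulator FOXC1 was the 1 of 23, with 2 summits of 293T and 1 of J76. CRIM1 was the 1 of 21 YAP/TEAD pathway genes, with 15 and 1, and CLDN1 the 1 of 19 epithelial genes, with 1 and 2. COL3A1 and ITGAV were the 2 of 28 matrix and integrin genes, with 5 and 1 and with 3 and 2. MAP2 was the 1 of 14 neuronal markers, with 14 and 2.

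The lists of neuronal adhesion and guidance genes had the most members in kept windows, where 2.35% of all genes lay. Of 27 synaptic adhesion genes in windows with 20 or more summits, 10 were in kept windows (37.0%), with 375 summits of 293T and 51 of J76 in all. Besides CNTNAP2, PCDH9 and ADGRL2 these included NLGN1, a postsynaptic neuroligin (45 and 5), TENM4, a teneurin (31 and 7), CNTN5 (22 and 6), PCDH7 (19 and 0), LRRTM4 (14 and 5) and PCDH17 (4 and 1). Of 29 axon guidance genes 9 were in kept windows (31.0%), with 245 and 25. They included the netrin receptor gene UNC5C (30 and 1), SLIT2, a ROBO ligand (29 and 4), SEMA3D (26 and 4), SEMA3C (22 and 0) and the ephrin receptor gene EPHA7 (15 and 1). The cadherins CDH18 (21 and 1) and CDH10 (10 and 0) were 2 of 19.

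Length differed between these lists and other genes. Among genes of 500 kb or more, 22% of all and 8 of 16 synaptic adhesion genes were in kept windows, and among axon guidance genes 2 of 6. Among shorter genes the lists had 2 of 11 and 7 of 23, against 385 of 18500 (2.08%) of all. That background is not of like length, since the share was 4.43% for all genes of 100 to 250 kb and 7.11% from 250 to 500 kb. The lists were also written with earlier results of these data known. Of 29 glutamate and GABA receptor genes 2 were in kept windows, and of 33 SOX, GLI, PAX and other developmental factors 3 were, among them FOXP2 (27 and 1) and NR2F2 (6 and 2). The part of gene length and gene density in these counts was not tested.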

How the data were processed

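ATAC-seq was done on 1 library each of J76 and 293T, and the authors deposited a peak list for each. The submitters' processing notes name Bowtie2 and MACS2. Versions, settings, duplicate removal and any shift of cuts were not stated in them. The lists hold the authors' fold enrichment (a linear ratio) and p and q as −log10 values; the deposited integer score was not used. All served only to describe or filter peaks within a list. Folds of both lines given side by side at a gene are not known to be on a common scale. Depth is unknown. No source used here names the genome build; contig names in both lists are those of GRCh38, so genes and promoters came from RefSeq tables of GRCh38.p14.

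Summits were counted per 1 Mb window and compared with genes in Python 3.11.15 with pandas 2.3.3. Wilson intervals came from statsmodels 0.14.6 and Poisson intervals from scipy 1.17.1. Gene ends reach 1 kb, a gene belongs to the window of its midpoint, and overlap means 1 bp or more. The counting was tested on simulated windows. The members, the windows and the 19 gene lists (463 entries; genes with ZNF or olfactory receptor symbols were counted too) were chosen with earlier results of these data known. Genes named are those with the most 293T summits in the 6 longest runs and in all kept windows, those with the strongest gene-end peaks found in 293T only, and up to 4 members of a list. MTAP, CDKN2A, DMRTA1, NCKAP5, further list members and the stretches between J76 summits were picked with their values in view. A few genes covered by these rules are left out of the text and the plot of genes. Alternatives were another grid, window size, ratio, minimum count, peak strength, list length and gene set. Sex chromosomes and unplaced contigs entered no window count above.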

Additional observations from a re-analysis of the deposited data

Results flagged for a closer look

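Chromosome X lies outside the rule, which takes autosomes only, and was looked at in the same way. Of its 93 windows with 20 or more summits, 21 held at least 4 times as many 293T as J76 summits (22.6%), with 624 summits of 293T and 102 of J76 in all. The mirror rule kept 0 of the 93. Among autosomes only chromosome 13 had a higher share (40.2%). The number of copies of chromosome X in each line is not known from these data, and its part in this share was not tested.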

How the results depend on the processing

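The number of kept windows moved with the ratio, with window size and with the length and strength of the lists. With the strongest 57429 peaks of each list 73 windows and 2173 peaks were kept, with J76 counts scaled to the 293T list length 130 and 5934, with a −log10 q of at least 5 154 and 4665, with a ratio of at least 6 125 and 5757, with a ratio of at least 3 421 and 18939, and with 500 kb windows 598 windows. All 73 and all 130 were among the 243, as were 133 of the 154. The longest run was 6 windows under the first 4 of these settings and without chromosome 13, against 13.

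The share of 293T summits at gene ends was 4.45% with equal lists, 2.65% with scaled counts, 5.24% at the stricter q, 2.46% at a ratio of 6, 4.72% at a ratio of 3 and 7.17% with all RefSeq genes. Genes per Mb were 1.62, 1.45, 2.03, 1.38, 2.44 and 9.83 in the same order, and 2.10 with 500 kb windows. Both were below the other windows in all 11 alternatives, as was the share of bases in gene bodies, which was 38.6% with equal lists, 37.3% at a ratio of 3, 40.01% with 500 kb windows, 52.2% with all genes and 38.9% without chromosome 13. The share of 293T summits in gene bodies was below the other windows in 10 of 11. It was 46.7% with equal lists (other windows 46.2%), 44.3% at the stricter q and also without chromosome 13, 38.8% at a ratio of 6, 42.3% at a ratio of 3, 41.2% with windows moved by 500 kb, 43.6% with 500 kb windows and 55.7% with all RefSeq genes; the cause was not tested. Leaving out chromosome 13, and leaving out the chromosome 7 run without genes, were chosen after seeing the data. No paired analysis was possible because each line has 1 library, and for the same reason no replicate could be left out.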

Other observations

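The 12 windows of the mirror rule, where J76 had at least 4 times as many summits, held 425 summits of J76 and 72 of 293T. They lay on chromosomes 8, 13, 14, 15, 18, 19, 20, 21 and 22, with at most 2 on any of them. They held 0.833 protein-coding genes per Mb, with 0 genes in 9 of 12, and gene bodies made up 3.03% of their bases, against 35.96% in the windows rich in 293T peaks. Of their J76 summits 7 of 425 (1.65%) were in a gene body. Those without protein-coding genes included the windows on chromosome 20 from 26 to 28 Mb and on chromosome 22 from 13 to 15 Mb. The placing of reads in the 12 windows was not checked, so their comparison with the windows rich in 293T peaks is description only.

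The gene table placed 60 microRNA genes in the windows rich in 293T peaks, and the hairpin sequence table placed 45 hairpins there. Of these 45, 9 had a 293T summit within 1 kb (20%) and 2 one of J76 (4.44%), against 233 (17.1%) and 207 (15.2%) of 1366 hairpins in the other windows with 20 or more summits. The windows were chosen on the difference between the lines, so nothing is read from the first pair of counts. MIR31, in the long chromosome 9 stretch without J76 summits, had none of either line within 1 kb. The same was true of MIR218-1, within SLIT2, and of MIR99A and MIRLET7C on chromosome 21. These names were picked after their values were seen.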
